A study of Mus musculus with 34 samples.

Results

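The cerebral cortex of male mouse offspring whose mothers had taken MDMA was compared with that of male offspring of non-treated mice, on 19 of the 34 arrays of a study of both sexes. The 19 arrays were those whose signal column carries the submitters' code for male first-generation offspring: 9 from males labelled 20 mg/kg MDMA and 10 from males labelled non-treated. The other 15 arrays held cortex of female offspring, 8 with MDMA and 7 non-treated. All animals were of the inbred strain C57BL/6N, and no group carried a transgene or deleted allele per the labels. The labels' protocols record that the breeders were purchased at the age of 6 weeks, and that MDMA was given by mouth in isotonic saline at 3 ml/kg. The series' design text says that exposure was through long-term ingestion by the mother. The labels say nothing of a saline gavage for the controls, nor of the age of the offspring, their litters or the days of dosing, so the p-values set each difference against the spread between arrays, taken as independent. Litter mates among them cannot be told apart from unrelated animals. Transcript levels in such bulk tissue cannot tell fewer cells of a type from less RNA per cell.

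MDMA (3,4-methylenedioxymethamphetamine, ecstasy) is an amphetamine that enters nerve endings through the monoamine transporters and releases serotonin, and to a lesser extent noradrenaline and dopamine. Serotonin fibres from the raphe nuclei reach the cerebral cortex before birth, where the transmitter takes part in the growth and migration of cortical neurons. None of the serotonin, dopamine and noradrenaline, glutamate or GABA genes that were looked up had a named probe on these arrays, so the systems on which the drug acts could not be read out here. The genes that could be read by name are a small share of the array: 316 of 33012 gene probes, for 310 genes, were given a symbol through the RefSeq gene table of GRCm38.p6. Of these genes 164 were bright enough to be tested.

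The arrays from MDMA males were brighter than those of control males before any scaling. Probes whose signal was 3 or more times their noise are called detected here. Their share among the gene probes was 56.5 ± 2.0% (SD, n = 9) on MDMA arrays, with a range of 53.1 to 59.5%. On control arrays it was 50.8 ± 1.3% (SD, n = 10), with a range of 48.9 to 52.9%. The groups did not overlap, and the exact two-sided permutation p of 1.08e-05 is the smallest that 9 against 10 arrays can give. The upper quartile of the signal was 12331 against 8391 intensity units (exact permutation p = 0.000238), while the lower quartile was 460 in MDMA males and 485 in control males (exact permutation p = 0.306). The median signal was 1649 ± 355 against 1288 ± 172 intensity units (exact permutation p = 0.00498). After Benjamini-Hochberg adjustment over the 7 measures per array that were compared, the exact permutation p was 3.79e-05 for the detected share and 0.00697 for the median signal. Kit spike-in rows, which carry no cortical RNA, were brighter as well. The 33 spike-in rows of the labelling and hybridisation kits had a median log2 signal of 15.25 ± 0.22 on MDMA arrays, from 14.93 to 15.63, and of 14.55 ± 0.26 on control arrays, from 14.14 to 14.87 (exact permutation p = 1.08e-05). That difference was 0.71 log2 units, and over all 146 control rows positive on every array it was 0.63 (15.17 ± 0.28 against 14.54 ± 0.27, exact permutation p = 9.74e-05). The same difference over the tested gene probes, before scaling, was 0.56 at the median.

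**Figure D1:**
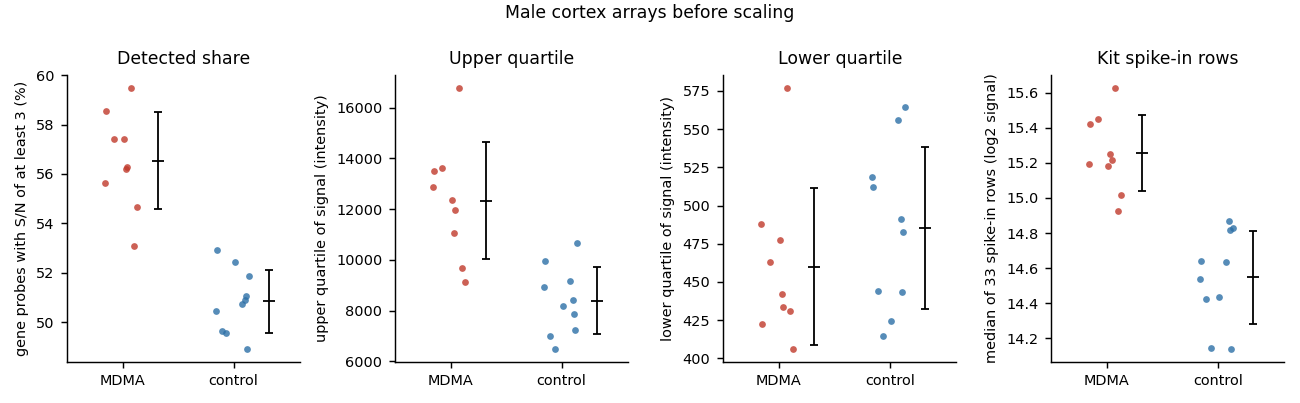
Each point is 1 male array before scaling, with the mean and SD beside each group: the share of detected gene probes in percent, the upper and lower quartiles of the gene probe signal in intensity units, and the median log2 signal of 33 kit spike-in rows. MDMA arrays lie above all control arrays in detected share (53.1 to 59.5% against 48.9 to 52.9%) and in the spike-in rows, while the lower quartiles overlap.

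The spike-in rows differed at each step of the kit. Bacterial transcripts added at reverse transcription were brighter with MDMA by 0.55 (LYS), 0.60 (PHE) and 0.70 (DAP) log2 units. Those added at the in vitro transcription step were brighter by 0.77 (BIOB), 0.74 (BIOC) and 0.76 (BIOD), and the 3 hybridisation rows by 0.38. Negative control rows had a median signal of 16.7 intensity units on MDMA arrays and 34.1 on control arrays (exact permutation p = 0.208). What part the brightness of the arrays had in the gene results was not tested as a cause. Its bearing on the values was measured by scaling the arrays in 5 ways, and each direction given below is relative to the scaling used.

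After quantile normalisation, which gives every array the same distribution of signals, 3484 of 18144 tested probes (19.2%) passed an adjusted p of 0.05 in a linear model fitted with limma to the 19 male arrays. Of these, 1736 probes (9.57% of those tested) were higher with MDMA and 1748 (9.63%) lower. The changes were small: the median size of a called change was 0.38 log2 units, and 150 called probes changed at least 2-fold, 119 of them higher and 31 lower with MDMA. The 9 MDMA arrays lay wholly above the 10 control arrays for 77 probes (0.424%) and wholly below them for 268 (1.48%), 345 in all (1.9%). The median over all tested probes was 0.06 log2 units, with quartiles of -0.13 and 0.23, so this distribution is the background against which single genes are read.

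Dim and bright probes did not divide alike. Among the 6048 dimmest tested probes 476 were called higher and 214 lower with MDMA. Among the 6048 of middle brightness 604 were called higher and 749 lower, and among the 6048 brightest 656 higher and 785 lower. The filter on dim probes bears on this split. Of the tested probes, 1810 were detected on a share of at least 0.5 of the MDMA arrays but not of the control arrays, and 145 the other way round. Such probes passed the filter through the group in which they are brighter, so their direction largely follows from the filter. It is not read as a result, but the counts of calls given here include these probes. Of the 1810, 243 were called higher and 2 lower with MDMA, and of the 145, 17 were called lower. Only 4 probes were detected on all 9 MDMA arrays and on no control array, and 0 on all control arrays and no MDMA array.

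Among the genes with a symbol, 30 of 164 passed (18.3%, close to the 19.2% of all tested probes), 14 higher and 16 lower with MDMA. Over all 164 genes the median difference was 0.07 log2 units. On 9 of 9 MDMA arrays the signal lay beyond the control mean, on the side of the change, for 25 of the 30. The 30 were called on these same arrays, so this largely follows from the calls and adds no support to them. Of the 30, 26 were detected on all 19 arrays. Groups that did not overlap were seen for Trim59, higher with MDMA, and Nt5m, lower with MDMA, and for 1.9% of all tested probes. Of the 30 calls, 9 held with the same sign under all 5 scalings: Trim59 was higher, and Hba-a1, Tcim, Olfr1189, Rnf112, Fgf11, Cebpb, Gpr119 and Cd99 were lower. The same held for 783 of the 3484 calls over all tested probes (22.5%), 190 higher and 593 lower with MDMA. The count of 9 is thus not read as a result about the named genes.

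**Figure D2:**
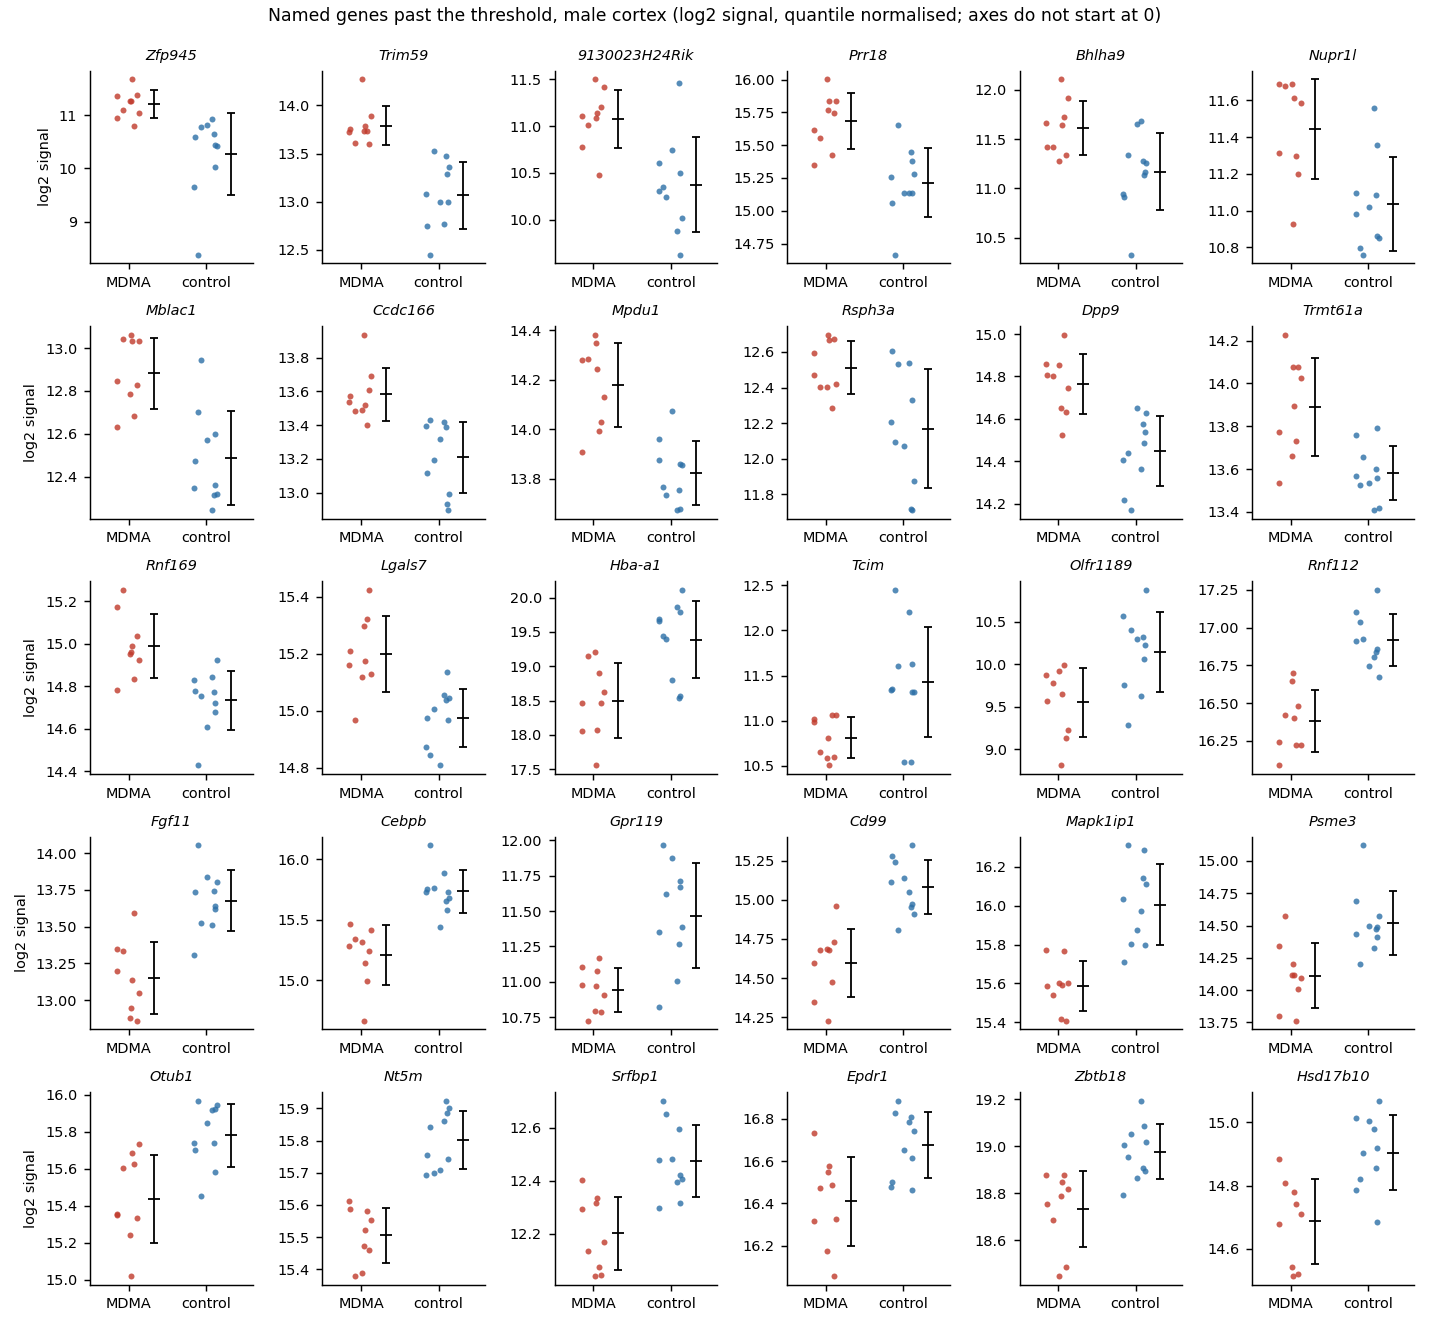
Quantile-normalised log2 signal of the 30 named genes past the threshold, 1 panel a gene, with 1 point per male array and the mean and SD beside each group (9 MDMA, 10 control). The first 14 panels are genes higher with MDMA and the other 16 genes lower with MDMA. In the panels of Trim59 and Nt5m no MDMA point lies within the control range.

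The promoters of 3 of these genes are shown because they stand for genes that moved in each direction under every scaling and that act in ubiquitin transfer, neuronal excitability and transcription. Each is the 250 bases before the annotated transcript start in RefSeq, build GRCm38.p6, read 5′ to 3′ on the gene's own strand. Capitals mark matches, on either strand, to GGGCGG (the GC box), CCAAT (the CCAAT box), TATAAA (the TATA box) or TGACG (the core of the cAMP response element). The core lies within the full element TGACGTCA. The Trim59 window is chr3:69044743-69044992 on the minus strand, the Fgf11 window chr11:69802281-69802530 on the minus strand, and the Cebpb window chr2:167688665-167688914 on the plus strand.
Trim59: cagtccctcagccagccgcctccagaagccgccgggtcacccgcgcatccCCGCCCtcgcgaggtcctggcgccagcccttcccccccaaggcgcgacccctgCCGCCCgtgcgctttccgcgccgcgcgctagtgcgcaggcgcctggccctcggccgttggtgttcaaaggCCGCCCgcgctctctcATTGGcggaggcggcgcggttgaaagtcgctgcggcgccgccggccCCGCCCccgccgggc
Fgf11: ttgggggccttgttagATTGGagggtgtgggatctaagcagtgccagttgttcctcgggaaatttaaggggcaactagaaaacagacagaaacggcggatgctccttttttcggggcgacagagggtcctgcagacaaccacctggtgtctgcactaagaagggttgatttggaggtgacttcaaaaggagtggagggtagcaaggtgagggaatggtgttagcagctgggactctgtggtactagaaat
Cebpb: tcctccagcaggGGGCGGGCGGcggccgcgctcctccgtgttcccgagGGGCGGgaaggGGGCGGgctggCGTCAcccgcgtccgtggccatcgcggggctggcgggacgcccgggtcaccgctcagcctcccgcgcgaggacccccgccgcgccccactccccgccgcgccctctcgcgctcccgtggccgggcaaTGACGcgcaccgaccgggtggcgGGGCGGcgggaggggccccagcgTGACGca
The Trim59 window held 4 GC boxes, the one nearest the start 15 bases before it, and 1 CCAAT box 61 bases before it. The Fgf11 window held 1 CCAAT box, 234 bases before the start, and no GC box. The Cebpb window held 5 GC boxes and 3 cores of the cAMP response element, at 180, 53 and 7 bases before the start. Over 32851 mouse promoter windows of this length, the GC box was found in 32.7%, the CCAAT box in 33.8%, the TATA box in 12.4%, the core in 17.8% and the full element in 1.55%. Of the called genes, 23 had a promoter entry, at most 5 windows for 1 gene, and a gene was counted if any of its windows held the letters. The GC box was found for 7 of 12 genes higher with MDMA and 4 of 11 lower, the CCAAT box for 5 of 12 and 5 of 11, and the core for 3 of 12 and 4 of 11. The percentages are per window and the counts per gene, so the counts are not set against them. These matches are letters in a window, not sites of binding.

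Genes of ubiquitin transfer and protein breakdown moved in both directions. Trim59, a ubiquitin ligase of the TRIM family with a RING domain, had a lowest, median and highest log2 signal of 13.60, 13.74 and 14.27 on MDMA arrays, against 12.45, 13.04 and 13.53 on control arrays. Every MDMA array lay above every control array. The difference was 0.72 log2 units (SE 0.13, limma adjusted p = 0.00101), or 1.65-fold higher with MDMA, and it ranged from 0.63 to 0.92 over the 5 scalings. Rnf169, a RING ligase recruited to DNA double-strand breaks, was also higher, by 0.25 (SE 0.07, limma adjusted p = 0.0191). Rnf112, a RING ligase with a GTPase domain that is made mainly in the nervous system, lay at 16.09, 16.40 and 16.70 on MDMA arrays, against 16.68, 16.89 and 17.25 on control arrays. All but 1 of the MDMA arrays lay below all control arrays. It was thus 1.45-fold lower with MDMA, at -0.54 log2 units (SE 0.09, limma adjusted p = 0.00059). Otub1, which is no ligase but an enzyme that removes ubiquitin, fell by 0.34 (SE 0.10, limma adjusted p = 0.0172), and Psme3, a regulator that opens the proteasome, by 0.41 (SE 0.11, limma adjusted p = 0.0174). Among the 5 RING and TRIM genes tested, Trim59 and Rnf169 were thus higher and Rnf112 lower with MDMA, while Trim34a at 0.33 and Trim41 at -0.08 did not pass. The list, which also held Otub1, was drawn up with earlier results of these data known, so its share of calls is not set against the 19.2% of all tested probes.

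Among genes of transcription, the leucine zipper factor Cebpb, which takes part in inflammatory responses and in the formation of memory, lay at 14.66, 15.28 and 15.46 on MDMA arrays and at 15.44, 15.73 and 16.11 on control arrays. Only 1 of 9 MDMA arrays reached into the control range. The difference was -0.53 log2 units (SE 0.10, limma adjusted p = 0.00143), or 1.44-fold lower with MDMA. A second Cebpb probe, with a mean log2 signal of 11.10, stood at 0.08 (SE 0.22, limma adjusted p = 0.831), so the fall rests on 1 of 2 probes. Zbtb18, a zinc finger repressor needed for the development of cortical neurons, was lower by a small amount, -0.25 (SE 0.07, limma adjusted p = 0.0209). Tcim, a small regulator of transcription and immune responses, lay at 10.50, 10.81 and 11.06 on MDMA arrays and at 10.54, 11.34 and 12.45 on control arrays. The groups overlapped on 8 of 9 MDMA arrays, and the control values were the more scattered. It fell by 0.62 (SE 0.21, limma adjusted p = 0.0403), a call lost without any of 12 of the 19 arrays in turn (limma adjusted p up to 0.0708). Srfbp1, which binds serum response factor, fell by 0.27 (SE 0.07, limma adjusted p = 0.0109).

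The zinc finger gene Zfp945 had the largest rise among the named genes, to 10.80, 11.27 and 11.68 on MDMA arrays against 8.38, 10.52 and 10.94 on control arrays. It was detected on 9 of 9 MDMA and 7 of 10 control arrays, and 8 MDMA arrays lay above the control range. The difference was 0.94 (SE 0.26, limma adjusted p = 0.016), and 0.73 without control replicate 7, which had the value of 8.38. Bhlha9, a helix-loop-helix factor known from limb development, was higher by 0.44 (SE 0.15, limma adjusted p = 0.0467), a call lost without any of 15 of the 19 arrays in turn (limma adjusted p up to 0.086). Nupr1l, a small nuclear protein related to a stress-induced regulator of transcription, was higher by 0.41 (SE 0.12, limma adjusted p = 0.0225). Of the 8 tested zinc finger genes, Zfp945 was higher and Zbtb18 lower. Zfp870, at 0.73, did not pass with the male arrays alone (limma adjusted p = 0.0506). In the immediate-early list, Cebpb was the 1 of 3 tested members to pass, while Jun stood at -0.19 and Rasd1 at -0.24. Cebpb was likewise the 1 of 2 members to pass in the list of glucocorticoid targets. These lists too were drawn up with earlier results of these data known. Of all tested probes 19.2% passed, and with so few members the shares in these lists are not read as results.

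Further genes that passed act in signalling or at the cell surface. Fgf11, a fibroblast growth factor homologue that stays inside neurons and belongs to a family that binds voltage-gated sodium channels, lay at 12.86, 13.13 and 13.59 on MDMA arrays and at 13.31, 13.69 and 14.05 on control arrays. On 6 of 9 MDMA arrays it lay below the control range. It fell by 0.53 (SE 0.10, limma adjusted p = 0.00197), or 1.44-fold. Cd99, a surface glycoprotein of leukocytes and endothelium, lay at 14.23, 14.68 and 14.96 on MDMA arrays and at 14.81, 15.08 and 15.35 on control arrays. On 8 of 9 MDMA arrays it lay below all controls, and it fell by 0.48 (SE 0.09, limma adjusted p = 0.00153). Gpr119, a lipid receptor best known from the pancreas and gut, lay at 10.73, 10.97 and 11.17 on MDMA arrays and at 10.82, 11.51 and 11.96 on control arrays. The groups overlapped, since the lowest controls reached the MDMA range, and the difference was -0.52 (SE 0.13, limma adjusted p = 0.0093). In the interferon and inflammation list, also drawn up with earlier results known, Cd99 and Tcim passed and Stat5a, at 0.47, did not (19.2% of all tested probes passed, and the Tcim call was lost without any of 12 arrays). In the channel list, drawn up in the same way, Fgf11 passed and Kcne4, at -0.32, did not. With so few members neither list is read against that 19.2%.

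Mapk1ip1, named for its interaction with a MAP kinase, lay at 15.41, 15.59 and 15.77 on MDMA arrays and at 15.71, 16.00 and 16.31 on control arrays, and 7 of 9 MDMA arrays lay below the control range. It fell by 0.42 (SE 0.08, limma adjusted p = 0.00233). Epdr1, a lysosomal ependymin-related protein, fell by 0.27 (SE 0.09, limma adjusted p = 0.0398), a call lost without any of 11 arrays in turn (limma adjusted p up to 0.0779). Dpp9, a cytosolic dipeptidyl peptidase that restrains an inflammasome sensor, was higher by 0.32 (SE 0.08, limma adjusted p = 0.00748). Olfactory receptors, which detect odours in the nose, were mostly not detected in cortex: of 39 with a symbol on the array, 4 were tested. Olfr1189, detected on 7 of 9 MDMA and 8 of 10 control arrays, was lower by -0.59 (SE 0.19, limma adjusted p = 0.0394), a call lost without any of 12 arrays in turn (limma adjusted p up to 0.0752). Olfr347 stood at -1.16 (SE 0.43) and did not pass (limma adjusted p = 0.0651).

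Enzymes of mitochondria, glycosylation and RNA made up another group. Nt5m, the mitochondrial deoxyribonucleotidase, which limits the pool of thymidine nucleotides there, lay at 15.38, 15.52 and 15.61 on MDMA arrays and at 15.69, 15.80 and 15.92 on control arrays. No MDMA array reached the control range. The difference was small, -0.29 log2 units or 1.23-fold lower with MDMA, and steady between arrays (SE 0.05, limma adjusted p = 0.000991). Hsd17b10, a mitochondrial dehydrogenase that is also a subunit of mitochondrial RNase P, was lower by -0.22 (SE 0.07, limma adjusted p = 0.0263), a call lost without MDMA replicate 5 or 9 (limma adjusted p up to 0.0537). Mpdu1, which acts in the use of dolichol-linked mannose for protein glycosylation, lay at 13.91, 14.25 and 14.38 on MDMA arrays and at 13.67, 13.81 and 14.07 on control arrays, and 6 MDMA arrays lay above the control range. It was higher by 0.36 (SE 0.07, limma adjusted p = 0.00287). Trmt61a, the catalytic subunit of a tRNA adenosine methyltransferase, was higher by 0.31 (SE 0.09, limma adjusted p = 0.0182), and Mblac1, a nuclease that in human cells trims histone transcripts, by 0.40 (SE 0.09, limma adjusted p = 0.00606). The histone genes H2bc13 and H2bc18 themselves stood at 0.09 and 0.01 and did not pass. Nt5m and Mpdu1 came from a list of mitochondrial and nucleotide enzymes with 4 tested members. Its other members, Nt5dc3 at 0.15 (limma adjusted p = 0.274) and Pdxp at 0.03 (limma adjusted p = 0.791), did not pass. This list too was drawn up with earlier results of these data known, so its share is not set against the 19.2% of all tested probes.

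Some of the genes that passed are best known from single cell types or other tissues. Hba-a1, which encodes the alpha chain of haemoglobin in erythrocytes, lay at 17.56, 18.47 and 19.20 on MDMA arrays and at 18.54, 19.55 and 20.11 on control arrays. On 5 of 9 MDMA arrays it lay below the control range. It fell by 0.89 (SE 0.24, limma adjusted p = 0.0153), or 1.85-fold, and a probe for it may also read the near-identical second alpha globin gene. It was the only 1 of 8 blood markers with a tested named probe, so whether less blood was left in the MDMA samples, and what part that had in other falls, was not tested. Prr18, a proline-rich gene expressed mainly in oligodendrocytes, the cells that make myelin, lay at 15.35, 15.75 and 16.00 on MDMA arrays and at 14.66, 15.20 and 15.65 on control arrays. It was higher by 0.47 (SE 0.11, limma adjusted p = 0.0066). Its 2 dimmer probes had the same sign, at 0.40 (limma adjusted p = 0.0496) and 0.29 (limma adjusted p = 0.137). None of the 6 oligodendrocyte markers looked up had a named probe.

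Rsph3a, a radial spoke protein of motile cilia, was higher by 0.34 (SE 0.12, limma adjusted p = 0.0489), a call lost without any of 15 arrays in turn (limma adjusted p up to 0.0849). Lgals7, a galectin of keratinocytes, was higher by 0.23 (SE 0.06, limma adjusted p = 0.0175). It stood in a list of 6 tested genes headed retrotransposon-derived and testis-type, a heading that does not describe it. No other member of that list passed. Ccdc166, a coiled-coil gene, lay above the control range on 8 of 9 MDMA arrays and was higher by 0.37 (SE 0.09, limma adjusted p = 0.007). The clone-named gene 9130023H24Rik was detected on 9 of 9 MDMA but 4 of 10 control arrays, so its difference of 0.71 (SE 0.19, limma adjusted p = 0.0137) lies near the detection limit of the controls. It passed the filter through the MDMA group alone, so its direction is not read as a result. The counts of higher calls include it.

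The labelled tissue could be checked against few defining genes. Of the neuronal markers only Snap25, a protein of synaptic vesicle release, had a named probe, detected on 7 of 9 MDMA and 5 of 10 control arrays, at 0.35 (SE 0.41, limma adjusted p = 0.576). Its array values ran from 8.24 to 12.04 with MDMA and from 8.71 to 10.91 in controls. The arrays thus differed among themselves by more than the groups did. The mean log2 signal of this Snap25 probe was 10.29 with MDMA and 9.94 in controls. That places it among the 6048 dimmest tested probes, whose means reached 11.81. Its values lie near the detection limit, so they are not read as a check of the tissue or of its neurons. Sox11, a factor of newborn neurons, was detected on 9 of 9 and 9 of 10 arrays and stood at -0.27 (SE 0.15, limma adjusted p = 0.209). The cortical patterning genes Lhx2 at -0.10 and Pou3f3 at 0.40 did not pass. No marker of astrocytes, microglia, endothelium, choroid plexus, meninges, striatum, hippocampus or thalamus had a named probe, so neighbouring tissue in the dissection was not tested. At least 1 tested gene was found for 21 of the 26 lists. The brain metallothionein Mt3, which binds zinc and copper, stood at -0.39 (SE 0.15) and did not pass (limma adjusted p = 0.0662). Cdc42ep1, Drg2 and Rasd1, which regulate or belong to small GTP-binding proteins, stood at 0.77, 0.30 and -0.24, and none passed.

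The choice of scaling moved the balance of the calls more than leaving out any single array did (46.8 to 51.1% of calls higher). Centring each array on its median gave 6872 calls, 6208 higher and 664 lower with MDMA. Centring on the 75th percentile gave 1435 higher and 1996 lower, and centring on the probes detected on all arrays gave 1340 higher and 2176 lower. Centring on the 146 control rows gave 190 higher and 2154 lower. The median difference over all tested probes was 0.22 log2 units with median centring and -0.07 with control rows, against 0.06 after quantile normalisation. Across the 5 scalings, 783 probes were called with the same sign, 190 higher and 593 lower with MDMA, which is 22.5% of the 3484. A change of sign under at least 1 scaling was seen for 92 of the 3484, namely 86 lower and 6 higher calls. At least 2-fold under all 5 were 6 higher and 22 lower probes.

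**Figure D3:**
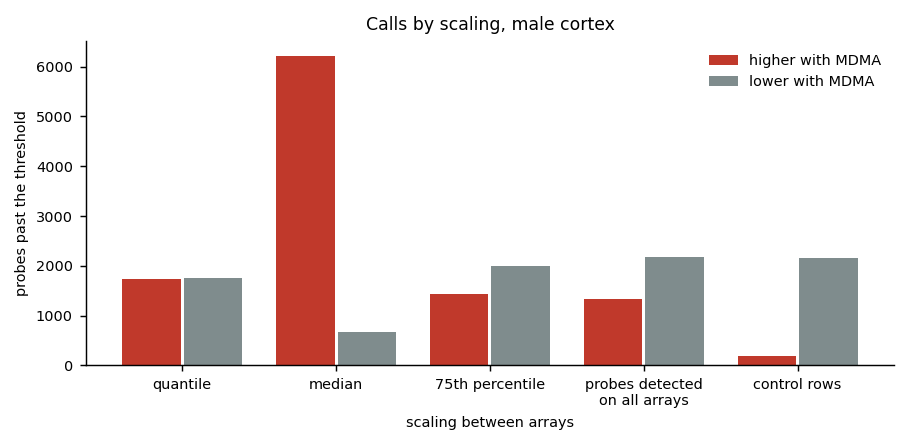
Number of probes past an adjusted p of 0.05 in male cortex, higher (left bar) and lower (right bar) with MDMA, under 5 scalings between arrays. Median centring gives 6208 higher and 664 lower calls, and control-row centring 190 higher and 2154 lower.

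The named genes followed the same division. All 14 higher calls held with median centring, and 1 of 14, Trim59, with control rows (0.63, limma adjusted p = 0.00369). All 16 lower calls held with control rows, and 8 of 16 with median centring. Before any scaling the 14 higher genes differed by 0.79 to 1.29 log2 units and the 16 lower genes by -0.38 to 0.34, against a median of 0.56 over all tested probes. Rnf112, Fgf11 and Cebpb were nearly equal in raw signal, at 0.03, 0.02 and 0.05 log2 units, and are lower only relative to the other probes of brighter arrays. Hba-a1 and Olfr1189 were lower with MDMA in raw signal too, at -0.38 each, as were Tcim at -0.20 and Gpr119 at -0.10. Nt5m, whose groups did not overlap after quantile normalisation, stood at -0.06 (limma adjusted p = 0.477) with median centring and at -0.35 (limma adjusted p = 0.00342) with control rows. Mapk1ip1 stood at -0.19 (limma adjusted p = 0.0842) with median centring and at -0.48 with control rows, and Hsd17b10 lost its direction with median centring (0.0030, limma adjusted p = 0.981).

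**Figure D4:**
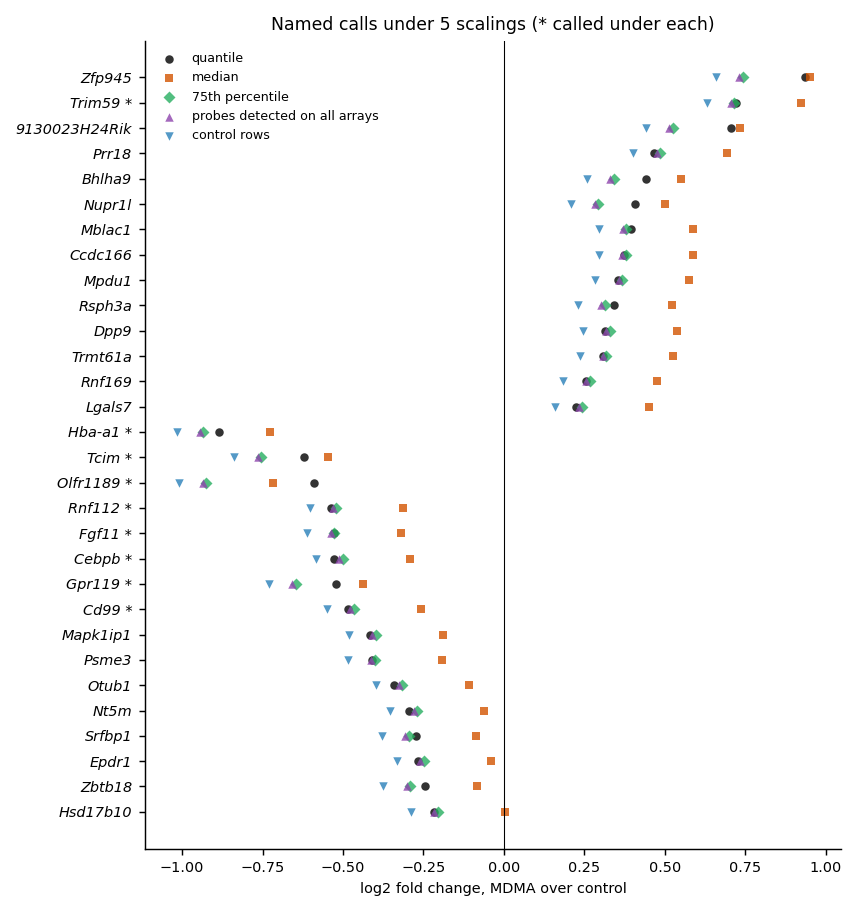
Log2 fold change of the 30 named calls, MDMA over control in male cortex, under 5 scalings, 1 row a gene and 1 symbol a scaling, with a star for the 9 genes called under each. The symbols of Trim59 run from 0.63 to 0.92 and those of Hba-a1 from -1.02 to -0.73, while those of Hsd17b10 reach 0.00 with median centring.

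A stronger adjustment used the first 2 principal components of the control rows as covariates. The first held 53.0% of the variance of these rows and separated the groups in large part, at 4.03 ± 3.13 (SD, n = 9) on MDMA arrays, from -0.40 to 9.63, and -3.63 ± 2.62 (SD, n = 10) on control arrays, from -8.19 to 0.44. A covariate so close to the grouping leaves little of the comparison to estimate, and array brightness and MDMA cannot be told apart wherever they coincide. With it 324 probes passed, 94 higher and 230 lower with MDMA. All 30 named genes kept their sign. Their SE was 1.41 to 1.96 times that without the covariates (median 1.88), and 3 calls were left: Fgf11 at -0.83 (SE 0.17, limma adjusted p = 0.0296), Mapk1ip1 at -0.57 (SE 0.14, limma adjusted p = 0.0494) and Nt5m at -0.39 (SE 0.10, limma adjusted p = 0.0454). Fgf11 was the only named gene called under all 5 scalings and with these covariates. Of the 27 calls lost, 12 had a difference at least as large as without the covariates and 15 a smaller one. Trim59 stood at 0.72 in both fits (limma adjusted p = 0.134 with the covariates), Hba-a1 at -1.30 with them and -0.89 without, and Cebpb at -0.37 with them and -0.53 without.

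Probes with no symbol held larger differences. The probe AK044288.1 lay at 12.52, 13.57 and 14.31 on MDMA arrays and at 10.58, 11.83 and 12.82 on control arrays, was detected on all of them, and was higher by 1.64 (SE 0.27, limma adjusted p = 0.00057). The probe mCG3983.2, detected on 9 of 9 and 7 of 10 arrays, was higher by 1.41 (SE 0.40, limma adjusted p = 0.0202). The largest falls, mCG22246.1 at -1.95 (SE 0.66, limma adjusted p = 0.0432) and mCG21465.1 at -1.87 (SE 0.59, limma adjusted p = 0.0316), varied widely between controls. The first ran from 8.39 to 11.96 on MDMA arrays and from 10.07 to 15.62 on control arrays.

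Before the sexes are compared, 1 array stands apart. On all 19 male arrays and on none of the 14 female arrays other than female MDMA replicate 2, 10 probes were detected, and 8 of these were detected on that array too. The reverse pattern was seen for 13 probes, of which 11 were not detected on female MDMA replicate 2. The array labelled female MDMA replicate 2 thus followed the male arrays at most of these probes. Whether the probes mark sex, a set of arrays or a sample that goes against its label was not tested, and sex and such a set cannot be told apart in the difference between the sexes. The comparison within males does not use that array.

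Whether the male values differed from those of females was tested with all 34 arrays, as the difference of the MDMA effect between the sexes. That difference passed for 4409 of 19020 probes (23.2%), with a higher effect in males for 2354 and a lower one for 2055. With median centring the split was 7131 and 1105, and with control rows 491 and 1892. Without the array labelled female MDMA replicate 2 it passed for 4398 probes (23.2%). Of the 30 named genes, 17 differed, 12 with a higher and 5 with a lower effect in males, and without that array these 17 and Cebpb differed. The 12 include 9130023H24Rik, whose direction in males is not read as a result. The 30 were chosen for their effect on these same male arrays, which raises this count, so it is not read against the 23.2% of all probes. In females 9 of the 30 passed in the quantile-normalised fit, 5 with the opposite sign and 4 with the same sign as in males. The share of all probes that passed in females was not worked out, so this count and its signs have no background and are not read as a result. These female values include female MDMA replicate 2 and were not repeated without it or under the other scalings. Those of opposite sign were Trim59 at 0.74 (SE 0.12) in males and -0.44 (SE 0.13) in females, Prr18 at 0.48 and -0.34, Nupr1l at 0.41 and -0.35, Lgals7 at 0.23 and -0.25, and Otub1 at -0.35 and 0.27. Mpdu1, at 0.37 in males and 0.56 in females, and Gpr119, at -0.53 in males and -0.41 in females, were of the same sign, as were Fgf11 at -0.54 and -0.27 and Hsd17b10 at -0.22 and -0.18. The difference between the sexes for these 4 did not pass (limma adjusted p from 0.156 to 0.798). Of the 17 differences, 6 held under all 5 scalings: those of Zfp945, Trim59, Prr18, Rnf169, Lgals7 and Hba-a1. Those of Nupr1l and Otub1, among the genes of opposite sign, did not. How many of the 4409 differences over all probes held under all 5 scalings was not worked out. The count of 6 thus has no background.

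**Figure D5:**
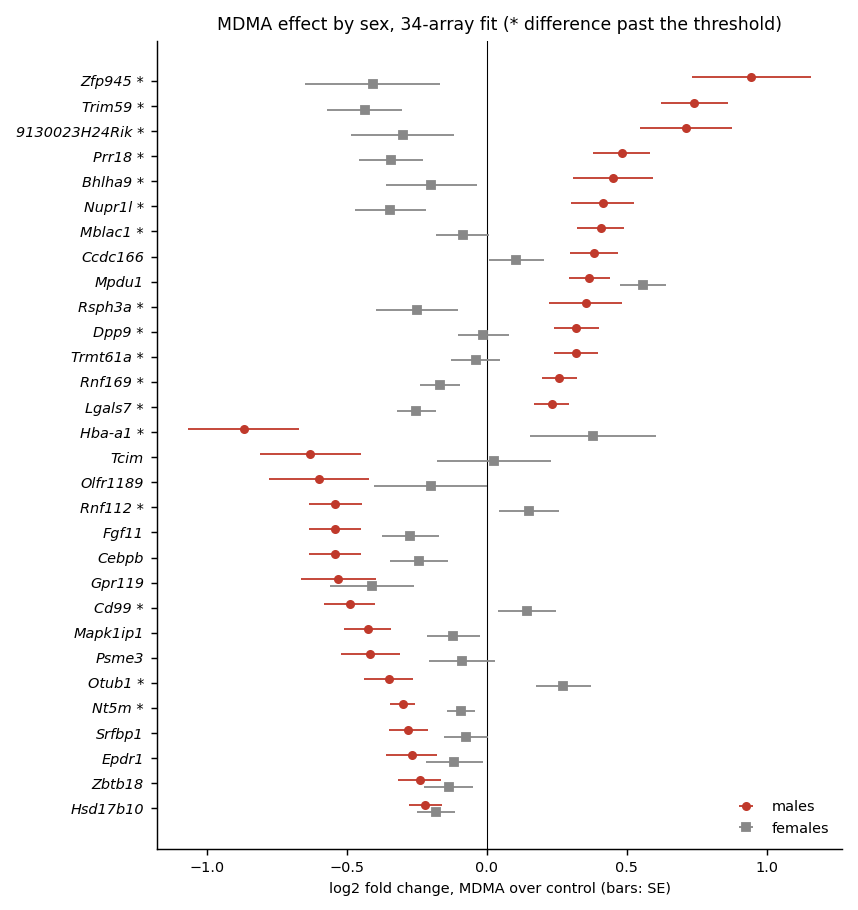
Log2 fold change, MDMA over control, of the 30 named genes in males (circles) and females (squares) from the fit to 34 arrays, with bars of 1 SE and a star where the difference between the sexes passed an adjusted p of 0.05. Trim59 stands at 0.74 in males and -0.44 in females, and Gpr119 at -0.53 and -0.41.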

How the data were processed

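Per the labels' protocols, total RNA of cerebral cortex had been labelled with digoxigenin by an Applied Biosystems kit and read by chemiluminescence, in 1 colour and with 1 array for each sample. The deposited files give, per the file headers, the intensity of each of 33315 rows (303 of them controls), its signal-to-noise score and a quality flag. A log2 table by the authors was used as an alternative. How the authors' values were centred is unknown. The sources used here do not state the image software, its settings or the probes' genome build.

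For the present values, spots with a flag of 5000 or more were set to missing, and the log2 signals of the gene probes were quantile normalised across the 19 male arrays. Tested probes had a signal of 3 or more times noise on a share of 0.5 or more of the arrays in either male group. Groups were compared by the lmFit and eBayes functions of limma 3.58.1 (R 4.3.3), and p-values were adjusted over all tested probes by the Benjamini-Hochberg method, after a test of the code on simulated data. Sexes were compared in 1 fit to all 34 arrays. Measures per array were compared with exact two-sided permutation tests. The number of arrays limits the precision. No pair of male arrays was identical, and correlations between them ran from 0.94 to 0.98.

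Symbols came from a RefSeq table, by accession for 311 probes and by synonym for 5, and a gene with several tested probes is given by its brightest. Named are up to 15 of the largest rises and 15 of the largest falls with a symbol past the threshold (14 rises passed), called members of 26 gene lists (at most 4 a list) and tested cell type markers. The members and lists were chosen with earlier results of these data known. Alternatives were 4 other scalings, an offset of 50, the authors' table, other probe filters, keeping low-quality spots, other variance settings, array weights, a replicate block, 2 control-row components as covariates, all 34 arrays, and leaving out each array in turn.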

Additional observations from a re-analysis of the deposited data

Results flagged for a closer look

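Among 78 sets of 9 or 10 male arrays looked at, 5 had 1 array far from its nearest neighbour for the spread of its group, where chance alone gives about 1 in 20. Zfp945 was at 8.38 log2 units on control replicate 7, with the next control at 9.65. Trim59 was at 14.27 on MDMA replicate 9, with the next at 13.89, and Psme3 at 15.12 on control replicate 10, with the next at 14.69. MDMA replicate 8 was the brightest array, with a median signal of 2443 intensity units (the next at 1800) and a lower quartile of 577 (the next at 488).

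The MDMA effect differed between males and females for 17 of the 30 named genes (limma interaction over 34 arrays, adjusted p from 3.61e-05 to 0.045). The 30 had been chosen for their effect in males, which raises the count, so it is not read against the 23.2% of all 19020 probes. Of the 17 differences, 6 held under all 5 scalings. As males minus females, on the log2 scale, the difference was 1.35 for Zfp945, 1.18 for Trim59, 1.01 for 9130023H24Rik, 0.82 for Prr18, 0.76 for Nupr1l, 0.65 for Bhlha9, 0.60 for Rsph3a, 0.49 for Mblac1, 0.48 for Lgals7, 0.43 for Rnf169, 0.36 for Trmt61a and 0.33 for Dpp9. It was -1.25 for Hba-a1, -0.69 for Rnf112, -0.63 for Cd99, -0.63 for Otub1 and -0.21 for Nt5m. The value of 9130023H24Rik is not read as a result, since in males it passed the filter through the MDMA group alone.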

How the results depend on the processing

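The 3484 calls in males became 6872 with median centring and 324 with the control-row components as covariates, and the 4409 differences between the sexes became 8236, with control rows 2383, and with the components 1612. The cause was not tested. The share of higher calls in males, 49.8%, was 90.3% with median centring, 38.1% with probes detected on all arrays, 8.11% with control rows, 39.7% with no filter on dim probes and 29.0% with the components. Under the other alternatives the male count lay between 2344 and 4394. Leaving out each array in turn gave 2862 to 3614 calls in males and 3660 to 4883 differences between the sexes. In the same turns, the difference in detected share stayed between 5.32 and 6.12 percentage points, that in median signal between 261 and 412 intensity units, and that in control rows between 0.57 and 0.68 log2 units.

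Directions changed with median centring alone, for Hsd17b10 (0.0030, limma adjusted p = 0.981) and for the sex differences of Nt5m (0.25), Zbtb18 (0.33) and Hsd17b10 (0.36). Of the 30 named calls, 26 held with the 75th percentile, 27 with probes detected on all arrays, 17 with control rows, 22 with median centring, 21 with no filter, 29 with array weights and with the authors' table, 27 with trend and robust variances, 26 of 26 when a probe had to be detected on every array, and 30 with the offset, with low-quality spots kept and with all 34 arrays. Leaving out 1 array, Bhlha9 stayed called only without control replicates 6 and 9 and MDMA replicates 5 and 9, and Rsph3a without control replicates 5, 6 and 10 and MDMA replicate 8. Olfr1189 stayed called without control replicates 5, 6 and 7 and MDMA replicates 2, 4, 8 and 9, Tcim without control replicates 1, 2, 5 and 9 and MDMA replicates 4, 6 and 8, and Epdr1 without control replicates 3, 4, 5 and 8 and MDMA replicates 1, 4, 7 and 8. Hsd17b10 was lost without MDMA replicate 5 or 9, and no other of the 30 calls was lost.

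With a replicate block, 2611 probes passed in males and 5 of the 30 named calls were lost (Bhlha9, Epdr1, Hba-a1, Hsd17b10 and Lgals7), and the sexes differed at 4540 probes. The numbers do not pair the arrays: over 9 pairs the correlation of deviations ran from -0.16 to 0.17, 2 pairs were over 0.1, and 1 array correlated best with its own number. Slide and scan date could not be used as a block and were not run, since no file gives them.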
